A study of Homo sapiens with 6 samples.

Results

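The synucleins and the genes of familial Parkinson disease were followed here through 8 genes: PINK1 and PARK7 of the mitochondrial and oxidative stress arm, SNCB and SNCG of the synuclein family, the ubiquitin hydrolase gene UCHL1, the kinase gene LRRK2, and the endosomal and lysosomal genes VPS35 and ATP13A2. All probe sets whose array annotation named exactly 1 gene, and that gene 1 of the 8, were taken, which gave 21 probe sets of the 49293 tested and 8 genes of the 18132 measured. The study exposed SH-SY5Y cells, a human neuroblastoma line with sympathetic, catecholaminergic features that is widely used as a stand-in for dopamine neurons, to endosulfan, an organochlorine insecticide known to block GABA-gated chloride channels. The groups were 3 arrays of cells given 3 µM endosulfan for 24 h and 3 arrays of control cells, for which the labels give only the word control and no vehicle. All cells were of 1 line, grown in flasks in serum-containing medium, and the 3 arrays of a group are named as biological replicates with no culture or day, so p-values measure the spread between these samples. Cells were measured in bulk, so a smaller share of cells expressing a gene and less RNA per cell cannot be told apart.

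In Parkinson disease, presynaptic proteins of the synuclein family can aggregate, dopamine neurons of the midbrain are lost, and inherited forms trace to a small set of genes. Several of their products watch over mitochondria: PINK1 accumulates on damaged mitochondria and marks them for removal by autophagy, and the PARK7 product DJ-1 protects cells from oxidants. Others act along the route of cargo through endosomes and lysosomes, where VPS35 recycles membrane proteins, LRRK2 phosphorylates RAB GTPases and ATP13A2 exports polyamines from the lysosome.

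Each probe set has 1 deposited value per array on the log2 scale, so a difference of 1 is a doubling of the signal. None of the 21 probe sets passed the test, a limma fit with Benjamini-Hochberg adjustment over all 49293 probe sets and a threshold of 0.05, and their adjusted p ran from 0.2146 to 0.9975 with 3 arrays a group. Over the whole array 4 probe sets passed, 0.00811 percent, and at the level of genes, with the brightest probe set standing for each gene, 1 gene passed, 0.00552 percent. At an unadjusted p below 0.05 the members had 5 probe sets higher and 6 lower after endosulfan, of 21, where 6.3 percent of all probe sets were higher and 9.21 percent lower. The endosulfan and control arrays did not overlap for 6 member probe sets on the higher side and 5 on the lower side, against 11.5 percent and 9.24 percent of all probe sets. Here and below, counts of member probe sets include copies that are not separate measurements. The 2 SNCB sets carry identical values, and 2 UCHL1 sets differ by at most 0.01 on any array. The members' median log2 fold change was 0.10, within a range of -1.42 to 0.72, and that of all probe sets was 0.05, within -1.89 to 2.72. Counted by gene, PINK1 and SNCB were on the higher side and PARK7 and VPS35 on the lower side at an unadjusted p below 0.05, where 6.64 percent of all genes were higher and 10.5 percent lower (1204 and 1899 genes, or 1745 and 1645 once each array was centred on its median). By gene the groups did not overlap for SNCB, PINK1 and LRRK2 on the higher side and for UCHL1 on the lower side, against 12.4 percent and 10.2 percent of all genes.

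In 1 of the alternative limma fits, which weights each array by how well it follows the model, 9 member probe sets had an adjusted p below 0.05. The 4 on the higher side were those of PINK1 and SNCB, and the 5 on the lower side were both of PARK7, 2 of UCHL1 and 1 of VPS35. The SNCB copies and the 2 near-identical UCHL1 sets are among them. That fit called 6.09 percent of all probe sets higher and 8.31 percent lower, gave endosulfan 3 a weight of 5.43 and control 3 a weight of 2.2 against 0.359 to 0.846 for the other 4 arrays, and its weights had not converged.

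**Figure D1:**
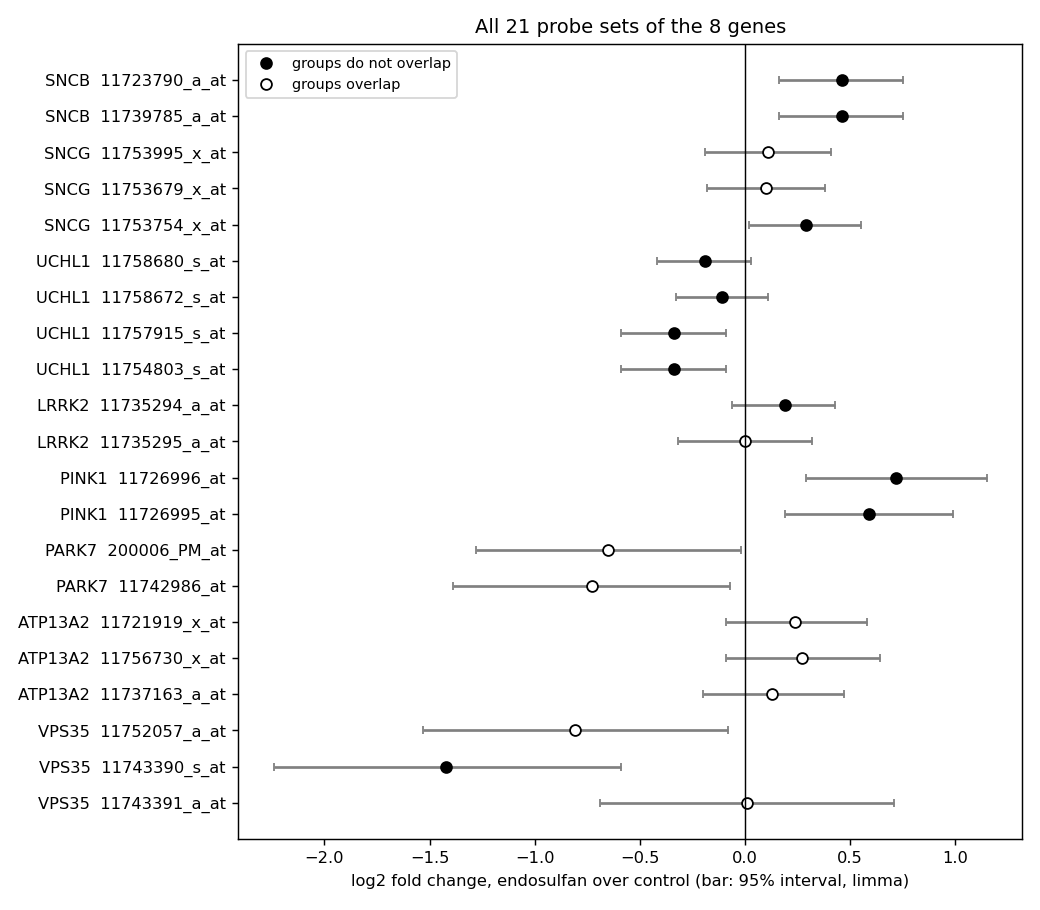
Log2 fold change of each of the 21 member probe sets, endosulfan over control, with its 95 percent confidence interval from limma (3 arrays a group). PINK1 lies farthest to the right at 0.72 and a VPS35 probe set farthest to the left at -1.42, and no interval belongs to a probe set that passed the adjusted test.

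The arrays themselves differed in ways that touch these values. Array medians lay between 4.89 and 4.94. The poly-A spike-ins, bacterial RNAs added to the sample before labelling, averaged 7.90, 7.82 and 8.90 on the endosulfan arrays and 6.19, 7.83 and 5.84 on the control arrays. The difference of 1.59 had a two-sided exact permutation p of 0.2, where 0.1 is the smallest that 3 against 3 arrays allow. The hybridisation controls averaged 10.93 ± 0.18 on endosulfan arrays and 10.29 ± 0.29 on control arrays (SD, n = 3 each; exact permutation p = 0.1). The signal of the 3' over the 5' GAPDH probe sets, a sign of RNA quality, was 0.84 ± 0.04 on endosulfan arrays and 0.75 ± 0.06 on control arrays on the log2 scale (SD, n = 3 each; exact permutation p = 0.1), and the groups did not overlap. For actin the same measure was 3.67 ± 0.10 and 3.59 ± 0.07 (SD, n = 3 each; exact permutation p = 0.3), and the groups overlapped. The first principal component carried 63.9 percent of the variance, with scores of 61.8, -1.81 and 33.4 for the endosulfan arrays and -71.6, -2.33 and -19.5 for the control arrays, so the second array of each group lay near the other. Of 16 markers of sympathetic neuroblastoma cells 15 were measured, and all 15 were above the median level of the table, as were 11676 of all 18132 genes. Their mean level was 9.90 to 10.05 on endosulfan arrays and 10.29 to 10.52 on control arrays, and at an unadjusted p below 0.05 none was higher and 6 were lower, with a median log2 fold change of -0.31. Over all genes the shares were 6.64 percent higher and 10.5 percent lower, with a median of 0.05. Mean levels of the markers of Schwann or glial, epithelial and blood cells and fibroblasts lay between 4.61 and 5.43 on all 6 arrays. Of the 8 fibroblast markers 4 were above the median level, among them THY1 and PDGFRB. So were 3 of 6 measured Schwann or glial, 4 of 8 epithelial and 4 of 8 blood cell markers. Among the fibroblast markers COL1A1 was higher and PDGFRA, COL1A2 and DCN were lower at an unadjusted p below 0.05, with PDGFRA at -0.90 ± 0.19 (SE; limma adjusted p = 0.1957). The other 3 lists had none at that p. The part of these differences in the members' values was not tested. The fit with the spike-in level is given beside each gene. It cannot tell that level from the exposure, since the level also differed between the groups.

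PINK1 was the member with the highest fold change. This gene encodes the serine/threonine kinase that phosphorylates ubiquitin on the surface of depolarised mitochondria, and its recessive loss causes early-onset Parkinson disease. Its brighter probe set, 11726996_at, read 9.15, 8.98 and 9.01 on the endosulfan arrays and 7.95, 8.71 and 8.33 on the control arrays. All 3 endosulfan arrays lay above all 3 control arrays. The SD was 0.09 over the endosulfan arrays and 0.38 over the control arrays. The log2 fold change was 0.72 ± 0.19 (SE), a 1.65-fold higher signal, with a 95 percent interval of 0.29 to 1.15 and an adjusted p of 0.2146 (limma, Benjamini-Hochberg). Only 156 of the 49293 probe sets, 0.317 percent, had a higher fold change. The other probe set, 11726995_at, read 8.26, 7.95 and 7.98 on the endosulfan arrays and 7.21, 7.82 and 7.38 on the control arrays, again without overlap. Its log2 fold change was 0.59 ± 0.17 (SE), with a limma adjusted p of 0.2276. In both probe sets control 2 was the highest control array, as it was in the poly-A spike-ins. The lowest array was control 1 in both PINK1 sets but control 3 in the spike-ins. The highest was endosulfan 1 in both PINK1 sets but endosulfan 3 in the spike-ins. With the poly-A level added as a covariate to the limma fit, the log2 fold changes of the brighter and the dimmer PINK1 probe set were 0.41 and 0.31. The antisense transcript PINK1-AS, chosen for mention after its values were seen, has a probe set of its own that read 5.23, 4.80 and 5.32 with endosulfan and 5.10, 5.17 and 5.36 in control cells. Those groups overlapped and the log2 fold change was -0.09 ± 0.16 (SE), with a limma adjusted p of 0.7993.

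PARK7, whose product DJ-1 is a redox-sensitive protein with a cysteine that is oxidised under oxidative stress, lay on the other side. Probe set 200006_PM_at read 11.08, 11.50 and 11.03 on the endosulfan arrays and 12.47, 11.35 and 11.75 on the control arrays. Control 1 stood well above the other 5 arrays, and endosulfan 2 lay above control 2, so the groups overlapped. The log2 fold change was -0.65 ± 0.27 (SE), a 1.57-fold lower signal, with a 95 percent interval of -1.28 to -0.02 and a limma adjusted p of 0.3128. Probe set 11742986_at read 9.66, 10.03 and 9.46 with endosulfan and 11.09, 9.93 and 10.32 in control cells. It ordered the 6 arrays as the first probe set did, with control 1 highest and endosulfan 3 lowest, and its log2 fold change was -0.73 ± 0.28 (SE) with a limma adjusted p of 0.2921. Without control 1 the values were -0.34 and -0.41, and with the poly-A covariate they were -0.12 and -0.16.

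SNCB encodes beta-synuclein, a presynaptic protein that by itself aggregates poorly. Its values were 6.59, 6.46 and 6.42 on the endosulfan arrays and 5.90, 6.25 and 5.95 on the control arrays. The lowest endosulfan array lay above the highest control array, which was control 2. The log2 fold change was 0.46 ± 0.13 (SE), a 1.37-fold higher signal, with a 95 percent interval of 0.16 to 0.75 and a limma adjusted p of 0.2194. A higher fold change was seen in 2.39 percent of all probe sets. The 2 probe sets of the gene, 11723790_a_at and 11739785_a_at, carried identical values on all 6 arrays and count as 1 measurement, so the 21 probe sets hold 20 distinct profiles. Such copies are not particular to SNCB, since 130 probe sets of the table had values identical to those of another. With the spike-in covariate the SNCB log2 fold change was 0.29.

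SNCG encodes gamma-synuclein, which is abundant in peripheral sensory and sympathetic neurons. All 3 of its probe sets carry the suffix x_at, which the array's maker gives to sets with probes that can also bind other transcripts. The brightest, 11753995_x_at, read 6.57, 6.22 and 6.53 on the endosulfan arrays and 6.22, 6.35 and 6.44 on the control arrays. Endosulfan 2 was the lowest array, so the groups overlapped, and the log2 fold change was 0.11 ± 0.13 (SE) with a limma adjusted p of 0.7151. Probe set 11753679_x_at overlapped as well, with a log2 fold change of 0.10 ± 0.12 (SE). Probe set 11753754_x_at read 5.23, 4.97 and 5.17 with endosulfan and 4.84, 4.73 and 4.93 in control cells. Here the groups did not overlap by a narrow margin, and the log2 fold change of 0.29 ± 0.12 (SE) had a limma adjusted p of 0.3016. This set was above the array's median on 3 of the 6 arrays. With the poly-A covariate the log2 fold changes of the 3 sets were 0.06, -0.10 and 0.37.

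**Figure D2:**
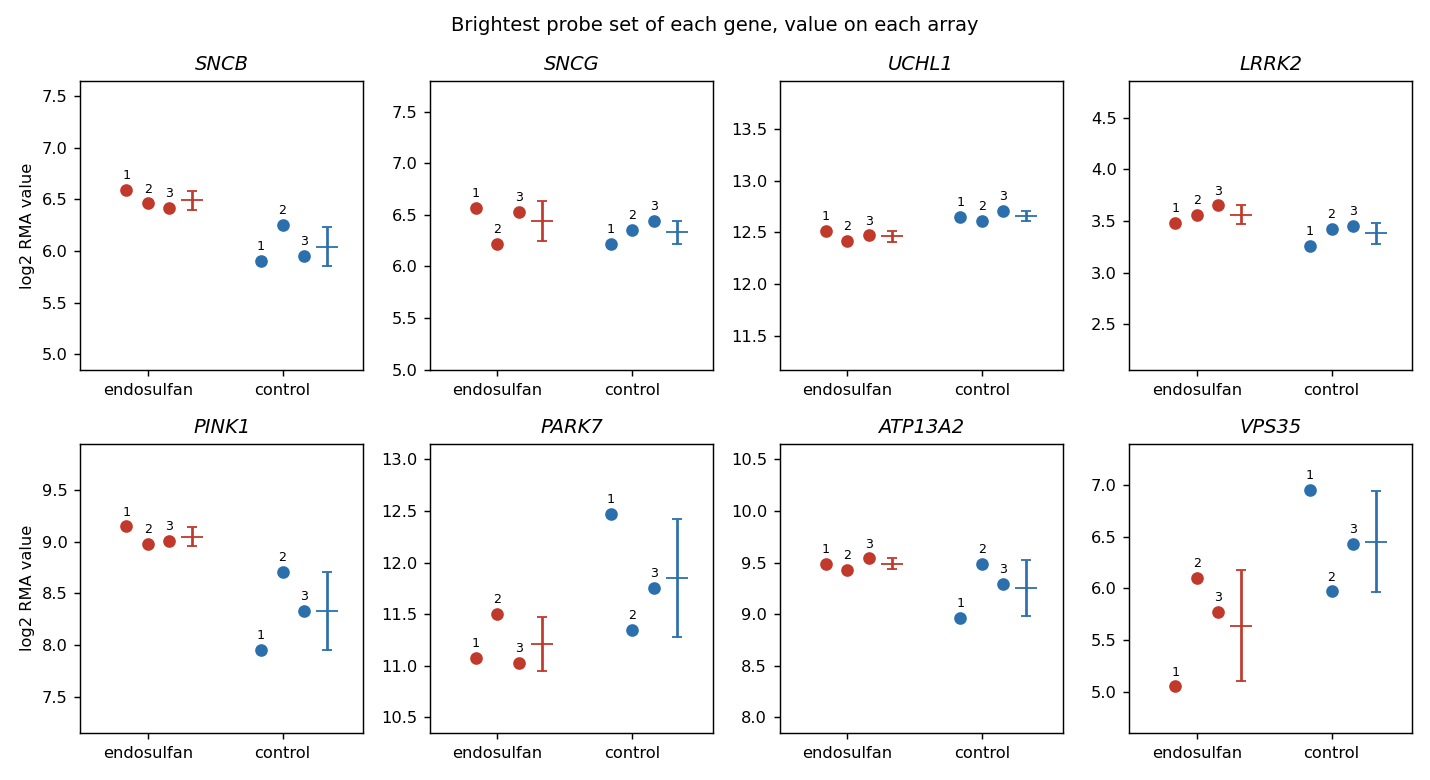
Log2 value of the brightest probe set of each of the 8 genes on every array, 3 endosulfan arrays left of 3 control arrays in each panel, with the group mean and SD. In PINK1, SNCB and LRRK2 all endosulfan arrays lie above all control arrays, in UCHL1 all lie below, and in SNCG, PARK7, ATP13A2 and VPS35 the groups overlap.

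UCHL1 encodes a deubiquitinating enzyme that is among the most abundant proteins of neurons. Its signals on the array's log2 scale are probe brightness, not an amount of transcript. Probe set 11758680_s_at read 12.51, 12.42 and 12.47 on the endosulfan arrays and 12.65, 12.61 and 12.71 on the control arrays. All endosulfan arrays were below all control arrays, but the log2 fold change was only -0.19 ± 0.10 (SE), with a limma adjusted p of 0.372. Probe set 11757915_s_at read 11.12, 11.03 and 11.01 with endosulfan and 11.44, 11.25 and 11.49 in control cells. Its log2 fold change was -0.34 ± 0.11 (SE), with a 95 percent interval of -0.59 to -0.09 and a limma adjusted p of 0.2375. In all 4 probe sets of UCHL1 the endosulfan arrays lay below the control arrays, with log2 fold changes of -0.11 to -0.34, and 11757915_s_at and 11754803_s_at differed by at most 0.01 on any array. With the poly-A covariate the 4 values lay between -0.18 and -0.15. The 4 sets carry the suffix s_at, given to sets that match several transcripts.

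LRRK2 encodes a large kinase with a GTPase domain, and dominant variants in it raise its kinase activity. Both of its probe sets lay below the median of the array on all 6 arrays, and no detection call was available to tell signal from background there. Probe set 11735294_a_at read 3.48, 3.56 and 3.65 on the endosulfan arrays and 3.26, 3.42 and 3.45 on the control arrays. The groups did not overlap, by a narrow margin, and the log2 fold change was 0.19 ± 0.11 (SE) with a limma adjusted p of 0.4305. Probe set 11735295_a_at read 3.36, 3.23 and 3.26 with endosulfan and 3.29, 3.52 and 3.04 in control cells. There the control arrays enclosed the endosulfan arrays, and the interval of the log2 fold change ran from -0.32 to 0.32. With the poly-A covariate the values of the 2 sets were 0.11 and -0.24.

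VPS35 encodes the core subunit of retromer, the coat that returns cargo from endosomes to the Golgi and the cell surface, and a missense variant of it causes a dominant form of the disease. Its probe sets did not behave alike. The brightest, 11752057_a_at, read 5.05, 6.10 and 5.77 on the endosulfan arrays and 6.95, 5.97 and 6.43 on the control arrays. Endosulfan 2 lay above control 2, so the groups overlapped, and the log2 fold change was -0.81 ± 0.31 (SE) with a limma adjusted p of 0.2913. Probe set 11743390_s_at read 4.67, 5.53 and 4.87 with endosulfan and 7.18, 5.77 and 6.38 in control cells. The groups did not overlap there, and the log2 fold change of -1.42 ± 0.36 (SE) was a 2.67-fold lower signal with a 95 percent interval of -2.24 to -0.59. This set carries the suffix s_at, given to sets that match several transcripts. Only 53 of the 49293 probe sets had a lower fold change, yet the limma adjusted p was 0.2146, the same as that of PINK1. Probe set 11743391_a_at read 4.31, 4.88 and 4.97 with endosulfan and 5.40, 4.39 and 4.33 in control cells, with control 1 the highest array and control 2 and 3 near the lowest. Its log2 fold change was 0.01 ± 0.30 (SE), with an interval of -0.69 to 0.71, and it was above the array's median on 2 of the 6 arrays. Without control 1 the log2 fold changes of the 3 sets were -0.56, -1.05 and 0.36, and with the spike-in covariate they were -0.44, -0.74 and 0.09.

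**Figure D3:**
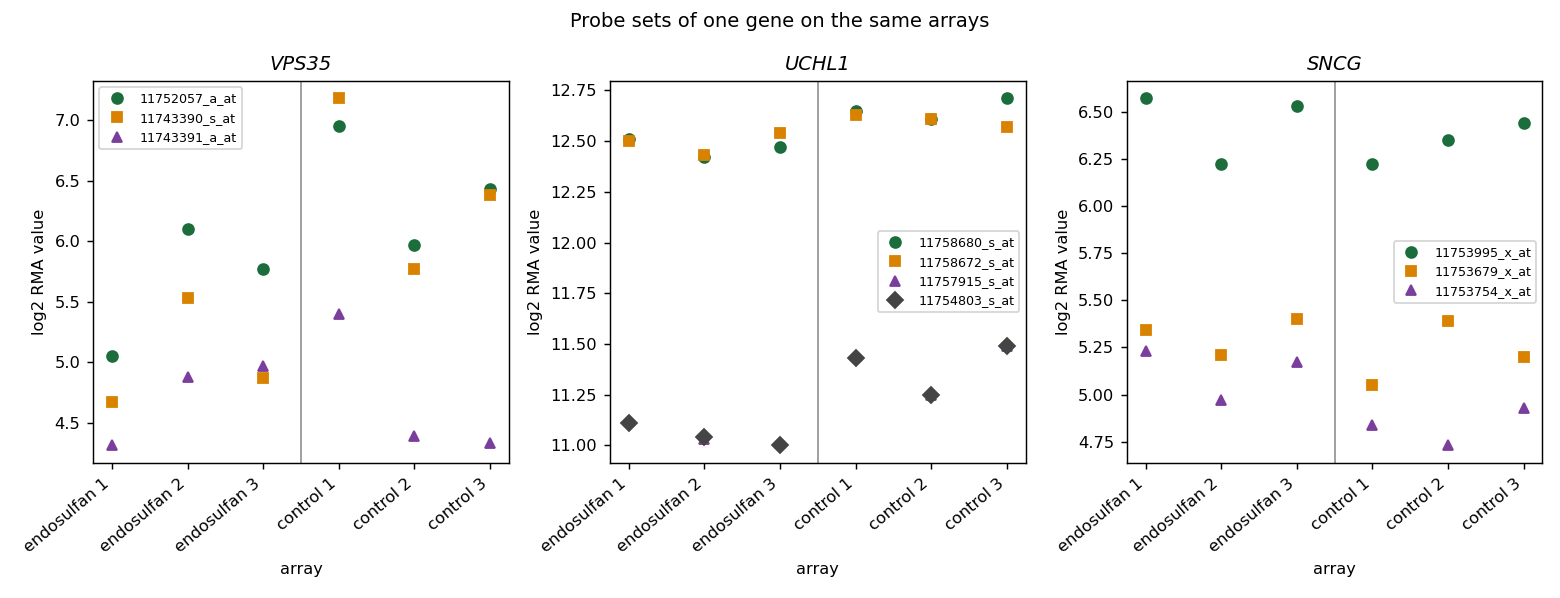
Log2 values of all probe sets of VPS35, UCHL1 and SNCG on each array, endosulfan left of control in each panel. For VPS35, 11743391_a_at does not follow the other 2 sets on control 2 and control 3, and in UCHL1 11757915_s_at lies under 11754803_s_at because the values nearly coincide.

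ATP13A2 encodes a P5-type ATPase of lysosomal membranes whose loss causes a juvenile parkinsonism. Probe set 11721919_x_at read 9.49, 9.43 and 9.54 on the endosulfan arrays and 8.96, 9.49 and 9.29 on the control arrays. The endosulfan arrays were close together, with an SD of 0.05 against 0.27 in control cells, and control 2 lay among them. The log2 fold change was 0.24 ± 0.14 (SE), with an interval of -0.09 to 0.58 and a limma adjusted p of 0.4415. The other 2 probe sets had log2 fold changes of 0.27 and 0.13, also with overlapping groups, and with the spike-in covariate the 3 values were 0.01, 0.05 and 0.01. Without control 1, the lowest array in all 3 sets, they were 0.10, 0.11 and 0.03. As in SNCG, the suffix x_at is carried here by 11721919_x_at and 11756730_x_at.

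Set side by side, the brightest probe sets of several genes ordered the arrays in related ways. Relative to its own mean over the 6 arrays, PINK1 was lowest on control 1, at -0.74, where PARK7 was 0.94 and VPS35 was 0.90 above theirs. On control 2 these 3 genes were at 0.02, -0.18 and -0.08. The poly-A spike-ins on the same scale were at 0.48, 0.41 and 1.49 on the endosulfan arrays and -1.22, 0.42 and -1.57 on the control arrays. With the poly-A covariate 0 of the 21 member probe sets had an unadjusted p below 0.05 in limma, against 11 without it. In either fit 0 were called. Among the 11, SNCG 11753754_x_at had a larger log2 fold change with the covariate, 0.37 against 0.29, and the other sets had smaller ones. The drop to 0 was therefore not a change in size alone, and the loss of precision in that fit was not measured. The share of all probe sets was lower too, at 0.907 percent on the higher and 1.17 percent on the lower side with the covariate, against 6.3 percent and 9.21 percent without it.

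**Figure D4:**
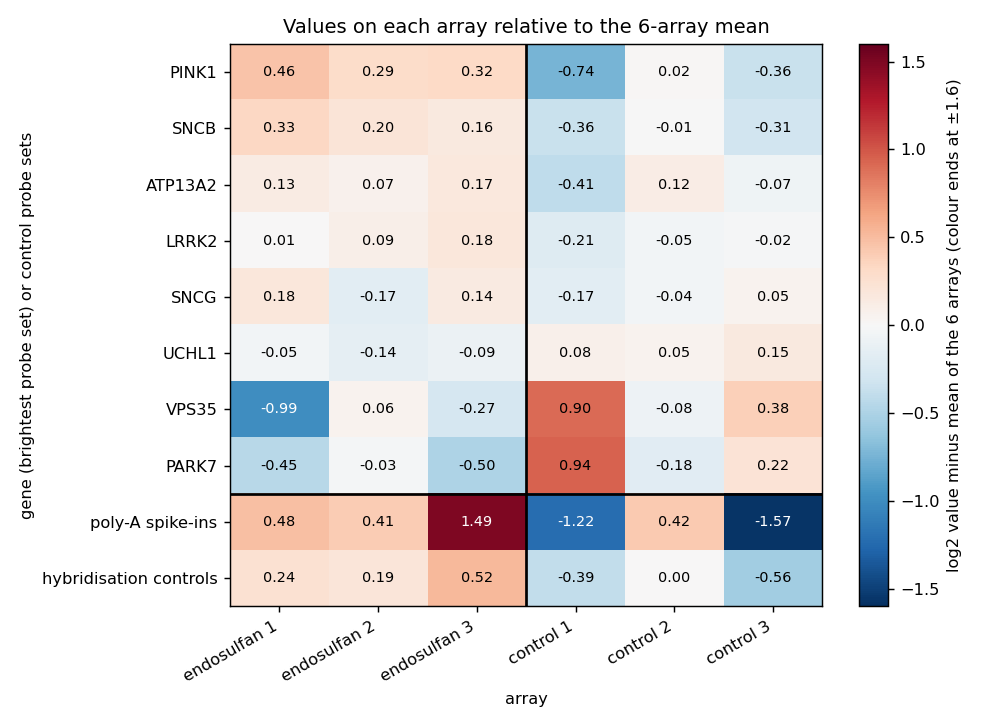
Log2 value of the brightest probe set of each gene on each array minus its mean over the 6 arrays, with the poly-A and hybridisation control probe sets as further lines, endosulfan arrays left of control arrays. Control 1 holds the lowest PINK1 value, -0.74, and the highest PARK7 and VPS35 values, 0.94 and 0.90, while control 2 stands close to the mean for these genes.

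Among genes above the median level, the profile most like that of PINK1 over the 6 arrays was that of PLEKHO1 (Pearson r = 0.998), and most like ATP13A2 was GTPBP1 (0.999). CINP was nearest to PARK7 (0.999), SPAG9 to VPS35 (0.998), RAB20 to SNCB (0.997), MYH11 to SNCG (0.991), PPP6C to UCHL1 (0.990) and ABCB9 to LRRK2 (0.974). These values describe 6 arrays of 2 groups that share most of their variance, and a high r was common: 14.2 percent of about 9065 genes had an r above 0.9 with PINK1, 17.5 percent with ATP13A2 and 13.9 percent with VPS35, but 0.8 percent with LRRK2 and 1.7 percent with UCHL1.

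**Figure D5:**
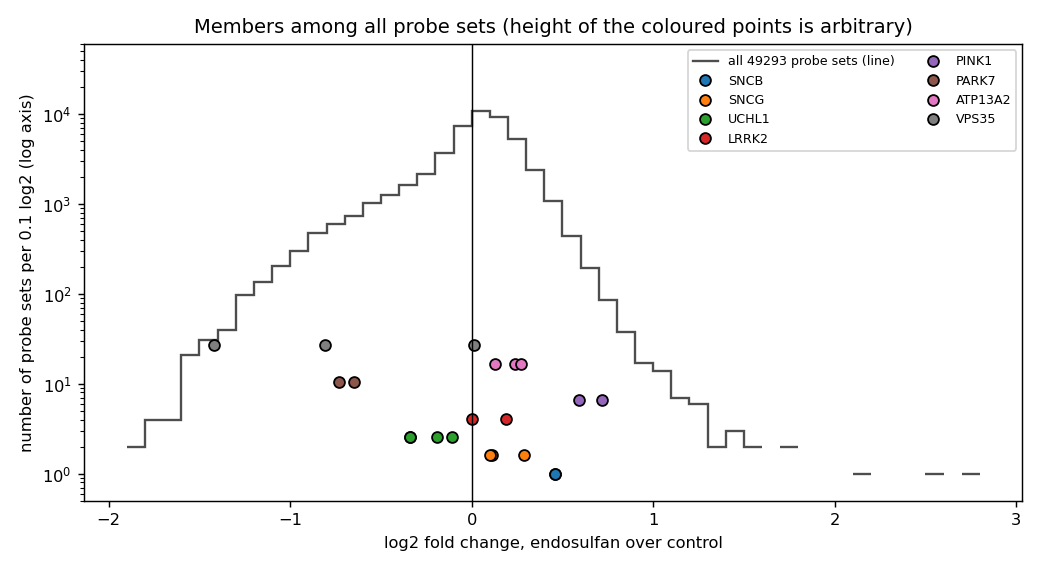
Number of probe sets per 0.1 of log2 fold change, endosulfan over control, for all 49293 probe sets on a log axis, with the member probe sets as coloured points at arbitrary height. PINK1 at 0.72 and 0.59 and VPS35 at -1.42 stand toward the ends of the distribution, with 0.317 percent and 0.812 percent of all probe sets above the PINK1 sets and 53 below the VPS35 set, while the third VPS35 set stands at 0.01.

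The genes that work with the members were read from 8 lists, described by counts at gene level against 6.64 percent of all genes higher and 10.5 percent lower at an unadjusted p below 0.05. No gene of these lists passed the limma test with Benjamini-Hochberg adjustment over 18132 genes. Of 34 measured genes of PINK1 import and processing and of mitophagy, which include receptors that work without PINK1, 4 were higher and 7 lower at an unadjusted p below 0.05, with a median log2 fold change of -0.05. The autophagy receptor gene SQSTM1 averaged 10.51 ± 0.06 with endosulfan and 10.10 ± 0.13 in control cells (SD, n = 3 each; limma adjusted p = 0.2036). TOMM20, an import receptor of the outer mitochondrial membrane, had a log2 fold change of -1.25 ± 0.38 (SE; limma adjusted p = 0.2153). Of 22 measured genes of retromer and its wider sorting partners 3 were higher and 7 lower. Their median was -0.28, the lowest of the 8 lists, and that of all genes was 0.05. The sorting nexin gene SNX2 averaged 4.86 ± 0.06 with endosulfan and 5.51 ± 0.18 in control cells, a log2 fold change of -0.65 ± 0.12 (SE; limma adjusted p = 0.1957). WASHC2C, a subunit gene of the actin-nucleating WASH complex that has a near-identical copy in the genome, was at -1.05 ± 0.26 (SE; limma adjusted p = 0.1957).

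Of 24 other Parkinson-linked genes 2 were higher and 4 lower at an unadjusted p below 0.05, with a median log2 fold change of -0.16. The lysosomal membrane protein gene SCARB2 averaged 8.58 ± 0.46 with endosulfan and 9.75 ± 0.49 in control cells, a log2 fold change of -1.17 ± 0.29 (SE; limma adjusted p = 0.1957). The endosomal co-chaperone gene DNAJC13, a dim probe set, was at -0.50 ± 0.12 (SE). Of 28 measured LRRK2 partners 3 were higher and 6 lower, with a median of -0.04. RILPL2, whose product binds RAB GTPases phosphorylated by LRRK2, was at 0.68 ± 0.16 (SE; limma adjusted p = 0.1957), and the chaperone gene HSPA8 at -0.92 ± 0.28 (SE; limma adjusted p = 0.2159). Of 15 measured DJ-1 and redox genes 2 were higher and 4 lower, with a median of 0.07. The quinone reductase gene NQO1 had a log2 fold change of 1.06 ± 0.16 (SE; limma adjusted p = 0.1957), and the glyoxalase gene GLO1 one of -1.10 ± 0.36 (SE; limma adjusted p = 0.2201).

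Of 20 measured genes of P5-type ATPases and polyamine metabolism 0 were higher and 2 lower, with 14 of 20 fold changes on the higher side and a median of 0.11. The 2 were ATP13A3, a relative of ATP13A2, at -0.82 ± 0.20 (SE), and the ornithine decarboxylase gene ODC1 at -0.60 ± 0.21 (SE), with limma adjusted p of 0.1957 and 0.2304. Of 18 measured synuclein partners at the synapse 0 were higher and 3 lower, with a median of 0.10. Among them the SNARE gene SNAP25 was at -0.95 ± 0.27 (SE; limma adjusted p = 0.2074) and NSF, the gene of the ATPase that takes SNARE complexes apart, at -0.69 ± 0.26 (SE; limma adjusted p = 0.2532). The 4 measured genes of the ubiquitin hydrolase list had none at an unadjusted p below 0.05. Of these the ubiquitin-like NEDD8 was at -0.21 ± 0.14 (SE) and UCHL3, the relative of UCHL1, at 0.30 ± 0.24 (SE).

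The promoters of the members with an unadjusted p below 0.05 by gene are shown for the context in which these probe sets' transcripts begin. RefSeq's promoter table for GRCh38.p14 held 8 windows of 250 bases before to 50 bases after the start for 7 of the 8 genes, and none for PINK1. SNCB lies on the minus strand of chromosome 5 (chr5:176630485-176630784), PARK7 on the plus strand of chromosome 1 (chr1:7961461-7961760) and VPS35 on the minus strand of chromosome 16 (chr16:46689129-46689428). Capitals mark the letters TGACNNNGC, the core of the antioxidant response element bound by NRF2, CCAAT, and the GC box letters GGGCGG, together with GCGGGGGCG, a site of EGR factors, each on either strand. All are written 5′ to 3′ along the gene's own strand.
SNCB: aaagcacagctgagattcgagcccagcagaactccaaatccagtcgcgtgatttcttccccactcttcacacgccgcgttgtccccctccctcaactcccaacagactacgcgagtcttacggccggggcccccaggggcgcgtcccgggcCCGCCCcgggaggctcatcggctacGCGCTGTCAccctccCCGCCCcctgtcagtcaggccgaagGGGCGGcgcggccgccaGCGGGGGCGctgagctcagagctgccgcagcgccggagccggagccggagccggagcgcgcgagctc
PARK7: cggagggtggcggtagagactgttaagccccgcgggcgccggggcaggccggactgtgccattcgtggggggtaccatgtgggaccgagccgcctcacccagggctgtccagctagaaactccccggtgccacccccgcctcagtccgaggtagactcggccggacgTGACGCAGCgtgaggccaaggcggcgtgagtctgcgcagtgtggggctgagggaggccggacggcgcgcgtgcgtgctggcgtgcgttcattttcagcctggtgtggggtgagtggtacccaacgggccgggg
VPS35: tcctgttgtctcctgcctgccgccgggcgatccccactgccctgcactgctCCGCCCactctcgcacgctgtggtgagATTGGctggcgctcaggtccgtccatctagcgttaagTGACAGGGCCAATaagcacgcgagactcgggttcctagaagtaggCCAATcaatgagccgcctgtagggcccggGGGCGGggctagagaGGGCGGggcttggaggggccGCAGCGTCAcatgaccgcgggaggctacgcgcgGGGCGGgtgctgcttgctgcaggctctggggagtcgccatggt

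TGACNNNGC was found at 1 place each in SNCB and PARK7 and at 2 places in VPS35, where the upstream match overlaps a CCAAT, and 13.3 percent of the table's 35116 promoters hold it. In PARK7 it begins 83 bases before the start and is the only match of the motifs searched. The GC box letters occur at 3 places in SNCB and 4 in VPS35, and in 45.0 percent of all promoters. CCAAT occurs at 3 places in VPS35 and in 34.6 percent of all promoters. SNCB holds GCGGGGGCG, which 5.07 percent of promoters hold, 17 bases before the start, and LRRK2 holds GCGTGGGCG, which 0.795 percent hold. UCHL1 was the single member with the letters TATAAA, found on the reverse strand 29 bases before the start and in 11.5 percent of promoters. ATP13A2 held only the GC box letters, at 3 places. TGANTCA, a site of AP-1 factors, was in none of the 8 windows and is in 7.71 percent of all promoters. TGACGT, part of the cAMP response element, was in none either, and 7.98 percent hold it. CACGTG, the E-box letters, was absent from them as well and is in 7.26 percent. The guanine and cytosine share was 71.0 percent in SNCB, 70.3 percent in PARK7 and 67.0 percent in VPS35, against a median of 58.7 percent for all promoters. These matches describe the letters of the windows and show no binding.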

How the data were processed

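RNA from SH-SY5Y cells was measured on 6 Affymetrix PrimeView arrays, 3 per group. The authors deposited 1 table of log2 values, made with Affymetrix Expression Console and RMA per the submitters' processing notes. RMA corrects background, matches the arrays' distributions and summarises probes into 1 log2 value per probe set. Matching the distributions takes out any shift shared by most transcripts. Their versions and options were not given in the sources. No detection call was made, since only the deposited values were read.

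Groups came from the labels' agent field. The 102 control probe sets served to describe the arrays, and the other 49293 were tested with limma 3.58.1 (lmFit, eBayes) in R 4.3.3, endosulfan against control, two-sided, with Benjamini-Hochberg adjustment over all probe sets or over 18132 genes and a threshold of 0.05. The brightest of its one-gene probe sets stood for each gene. Array measures were compared with exact permutation tests. The number of arrays limits the precision. The script was tested on simulated data with changes in 50 probe sets of each size. It called 5 of 50 at a log2 change of 0.585, 18 at 1, 45 at 2 and 49 at 3. The simulated errors were drawn independently for each probe set, which leaves out variation shared across probe sets on an array. These counts check the script and do not give what the real comparison could find.

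All members' probe sets are named, then from each context list the 2 genes with the smallest p at gene level, and for each member the gene with the most similar profile. The members and lists were chosen with earlier results of these data known. The alternatives were a replicate block, other normalization, centring, a filter on dim probe sets, other moderation, array weights, a spike-in covariate, averaging over the probe sets of a gene, and leaving out each array in turn. Promoters are RefSeq's for GRCh38.p14. Plots used matplotlib 3.10.9 (Python 3.11.15).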

Additional observations from a re-analysis of the deposited data

Results flagged for a closer look

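Measures outside the genes were higher on the endosulfan arrays than on the control arrays. The poly-A spike-ins, which carry no cell RNA, were higher by 1.59 on the log2 scale, with a mean of 8.21 ± 0.60 on endosulfan arrays and 6.62 ± 1.06 on control arrays (SD, n = 3 each; exact permutation p = 0.2). Control 2 read 7.83, among the endosulfan values of 7.82 to 8.90. The hybridisation controls were higher by 0.63, with 10.93 ± 0.18 on endosulfan arrays and 10.29 ± 0.29 on control arrays (exact permutation p = 0.1, as low as 3 against 3 can go). The 3' over 5' GAPDH signal was 0.84 ± 0.04 on endosulfan arrays and 0.75 ± 0.06 on control arrays, also without overlap (exact permutation p = 0.1). The 3' over 5' actin signal was 3.67 ± 0.10 and 3.59 ± 0.07, with overlap (exact permutation p = 0.3). The part of these measures in the members' values was not tested. With the poly-A level as a covariate, PINK1 11726996_at had a log2 fold change of 0.41 and PARK7 200006_PM_at one of -0.12. That fit cannot tell the poly-A level from the exposure, since the level differed between the groups.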

How the results depend on the processing

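Over the alternatives the members' log2 fold changes kept their direction and their side of the threshold in 298 of 320 cases. Of the rest 9 came past the threshold, all under array weights, and 13 turned in sign. The cases were probe sets under each setting, and genes only under averaging over the probe sets of a gene. Outside these cases, array weights at gene level called 2 member genes higher and 3 lower of 8. That fit called 2914 genes higher and 3001 lower of all 18132. Against 4 probe sets and 1 gene called, limma called 0 and 0 with the replicate block, without moderation and with the spike-in covariate, 7101 and 5915 with array weights (the cause was not tested), and 1 and 0 when control 1 and endosulfan 1 were both left out, a setting chosen after seeing the data. Averaging over the probe sets of a gene gave 0 genes. Leaving out 1 array gave 0 to 7 probe sets (7 without control 2) and 0 to 0 genes. Members at an unadjusted p below 0.05 numbered 11, then 7 with the block, 0 with the covariate, 5 without both arrays and 6 to 12 when 1 array was left out (6 without control 3, 12 without control 2). The share of all probe sets at that p moved as well, and was 15.5 percent in the fit reported, 9.48 with the block, 2.08 with the covariate, 8.46 without both arrays, 11.3 without control 3 and 19.3 without control 2. Member probe sets called were 0, and 9 with array weights. Member genes without overlap were 4, and 4 to 8 with 1 array left out (8 without endosulfan 2, 7 without control 2), where the share of all genes was 22.6 percent with all arrays, 47.3 without endosulfan 2 and 39.7 without control 2. They were 3 after further quantile normalization, where LRRK2 overlapped, with the filter on dim probe sets and with averaging over probe sets. The shares of all genes there were 22.7, 27.7 and 22.6 percent. SNCG 11753995_x_at was at -0.02 and ATP13A2 11737163_a_at at -0.06 without both arrays, and SNCG 11753679_x_at at -0.10 with the covariate. LRRK2 11735295_a_at was at 0.01 after centring and 0.08 with array weights, and ran from -0.12 to 0.12 with 1 array left out, as VPS35 11743391_a_at did from -0.18 to 0.36. Same-numbered arrays had deviation correlations of -0.513, -0.403 and 0.051, and no array correlated best with its own number, so numbers were not taken as pairs. A filter at the median level left no value for both LRRK2 sets and VPS35 11743391_a_at.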
